A study of Gallus gallus with 5 samples.

Results

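Long autosomal genes were examined by RNA-seq in DT40, a chicken cell line from a B-cell lymphoma, with CAP-H labelled off or on. They were defined as RefSeq mRNA features (transcript identifiers starting NM_ or XM_) on numbered chromosomes whose span, from annotated start to annotated end on the build galGal4, was at least 100 kb. Of the 17036 rows in each count file, 978 met this rule. After rows with the same interval and counts were reduced to 1, they made 890 features of 16143 in all, of which 439 carry a gene symbol. Every value comes from 2 CAP-H +dox libraries (replicates 1 and 3; labelled CAP-H off, with doxycycline at 100 ng/ml) and 3 CAP-H -dox libraries (replicates 1, 2 and 3; labelled CAP-H on, no doxycycline), at 36 h. The labels call the cells of both groups CAP-H KO, so the alteration is shared and the drug alone separates them. An effect of doxycycline itself and an effect of losing CAP-H cannot be told apart in this design. Whether the replicates are separate cultures is not stated, so the p-values speak for the spread among these 5 libraries alone, and that spread may be technical.

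CAP-H is the kleisin subunit of condensin I, the ring-shaped complex that compacts chromosomes for mitosis. Most of the span of a long vertebrate gene is intron, which RNA polymerase must cross before a transcript is finished, so such genes take longest to transcribe. In birds and mammals many of them encode adhesion molecules, synaptic proteins, ion channels and large signalling scaffolds, and several coincide with fragile sites, places where chromosomes break under replication stress. The comparison asks how the RNA of these genes differed once CAP-H was off.

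Total counts ranged from 12199522 to 13501033 in the +dox libraries and from 12311777 to 22533003 in the -dox libraries. B-cell markers were present: 12 of 16 were measured, with summed levels of 1317 to 1366 CPM (counts scaled to library size) in +dox libraries and 1761 to 1827 CPM in -dox libraries, led by PTPRC, LYN and BTK. Of the other marker lists, 6 of 8 T-cell genes summed to 127 to 128 CPM in +dox and 133 to 147 CPM in -dox libraries. The 6 measured of 8 macrophage genes summed to 36.2 CPM in both +dox libraries and to 78.9 to 85.4 CPM in -dox libraries, with MARCO at the floor of 1 count throughout. The 3 measured of 10 erythroid genes summed to at most 0.280 CPM in +dox and 0.442 CPM in -dox libraries, with TAL1 at the floor. The 5 measured of 8 fibroblast genes summed to 32.7 to 35.5 CPM in +dox and 30.9 to 35.7 CPM in -dox libraries, with DCN at the floor. Their part in the results on long genes was not tested. EBF1, the early B-cell transcription factor, is itself a long gene (259.5 kb), and stood at 121 and 132 CPM in the +dox libraries and at 141, 120 and 105 CPM in the -dox libraries, so its groups overlapped. The gene of CAP-H matched 0 rows, so it could not serve as a check, and every direction rests on the labels.

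Long genes took a smaller share of the RNA in the +dox libraries. Over all 890, with no filter, they held 3.14% and 3.20% of the counts in the +dox libraries (replicates 1 and 3), against 4.61%, 4.22% and 4.21% in the -dox libraries (replicates 1, 2 and 3). The groups did not overlap, and the means were 3.17% ± 0.044 (SD, n = 2) and 4.34% ± 0.228 (SD, n = 3), a ratio of 0.729. In bulk RNA, fewer cells of a type and less RNA per cell cannot be told apart. A share falls when other features rise, and the 10 features with the most counts took 11.3% and 12.1% of the counts in +dox libraries but 6.46% to 6.63% in -dox libraries. With the 15 features that were among those 10 in any library set aside, the share of long genes was 3.60% and 3.71% in +dox libraries and 4.98%, 4.57% and 4.56% in -dox libraries, a ratio of 0.778. Genes of 200 kb or more, a subset, held 0.767% and 0.788% in +dox libraries and 1.18%, 1.05% and 1.07% in -dox libraries.

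**Figure D1:**
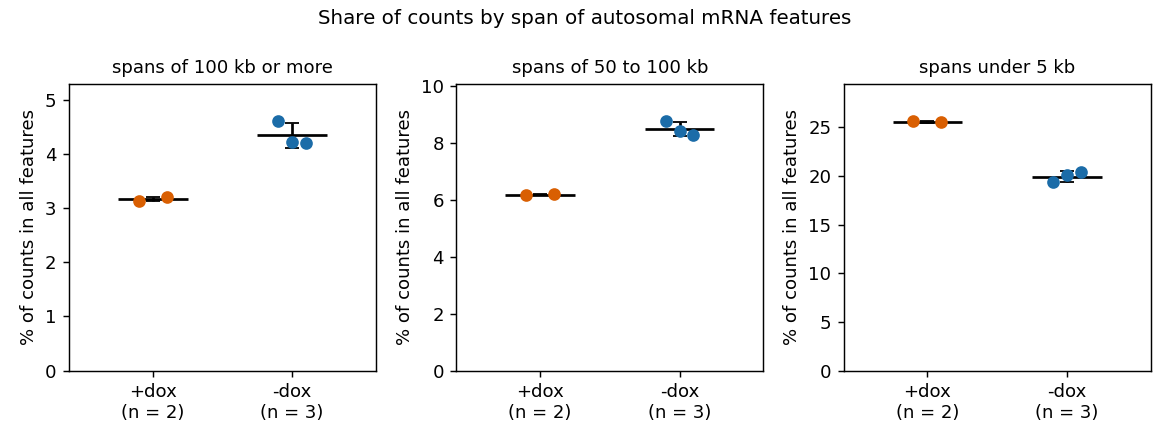
Each panel plots the share of a library's counts, in percent, that fell in autosomal mRNA features of 1 span class; points are libraries (+dox, n = 2; -dox, n = 3), lines are means and bars are SD. The +dox points for spans of 100 kb or more (3.14% and 3.20%) lie below all 3 -dox points, as do those for 50 to 100 kb, whereas those for spans under 5 kb (25.7% and 25.5%) lie above.

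Gene by gene, 526 of the 890 long genes (59.1%) passed the filter on low counts and were tested by quasi-likelihood in edgeR, with p-values adjusted by Benjamini and Hochberg's method over all 10079 features and a threshold of 0.05. Log2 fold changes are +dox minus -dox. Of the 526, 198 fell (37.6%), 68 rose (12.9%) and 260 did not pass. Among all features tested, 23.7% fell, 22.6% rose and 46.3% changed in either direction. The median log2 fold change was -0.15 over the tested long genes and 0.00 over all features tested. In 241 long genes (45.8%) both +dox libraries lay below all -dox libraries, and in 108 (20.5%) both lay above, against 32.9% and 32.1% of all features tested (64.9% in either direction). Scaling by library size alone in place of TMM moved the median of all features by -0.18. It gave 276 falls (52.5%) and 47 rises (8.94%) among the long genes. Among all 10079 features it gave 4119 falls and 1272 rises, so the lean to falls in that run was general. Directions are therefore relative to the typical feature.

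The 364 long genes that were not tested averaged at most 0.828 CPM, and 45 of the 890 stood at the floor of 1 count in every library. DMD, the dystrophin gene and the longest of all (996.1 kb), was among the untested. Near the filter the outcome is partly fixed by the choice, since 25 tested long genes had passed only through the +dox libraries (18 of them rose, 0 fell) and 25 only through the -dox libraries (5 fell, 0 rose). Above a mean of 5 CPM over all libraries, 188 of 393 long genes fell (47.8%) and 41 rose (10.4%), where 27.2% of all features at that level fell and 24.9% rose. Most rises of at least 2-fold were of genes with little RNA. Of 33 such rises 24 had a mean under 5 CPM, as did 10 of the 22 falls of at least 2-fold. The background for changes of that size was 3.49% of all features tested for rises and 2.69% for falls.

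The falls were spread over many genes and mostly moderate. The long genes that fell had a median log2 fold change of -0.49, and above 5 CPM their middle 50% ran from -0.66 to -0.33. Shorter autosomal mRNA features of like CPM served as a comparison, in bins that double in mean CPM and weighted by the number of long genes in each. Of these 21.7% rose and 22.4% fell, and their median was 0.02, which is 0.17 above that of the long genes on the log2 scale. The contrast in the share that fell was wider at high levels than at low ones, though not in even steps. In the lowest bin, 0.5 to 1 CPM, which straddles the filter, 12 of 41 tested long genes rose, and all 12 had passed only through the +dox libraries, so nothing is read from it. At 32 to 64 CPM 27 of 64 long genes fell (42.2%) and 9 rose, against 23.0% and 27.5% of shorter features. At 128 to 256 CPM 46 of 75 fell (61.3%) and 3 rose, against 40.3% and 22.2%, and at 256 to 512 CPM 19 of 21 fell (90.5%) and 0 rose, against 41.6% and 27.0%. At 512 to 1024 CPM 4 of 6 fell (66.7%) and 0 rose, against 37.7% and 38.8%. The medians did not follow a steady course: that of long genes was -0.16 at 8 to 16 CPM, -0.06 at 16 to 32 CPM, -0.24 at 128 to 256 CPM, -0.50 at 256 to 512 CPM and -0.27 at 512 to 1024 CPM, against 0.05, 0.02, -0.09, -0.09 and -0.00 for shorter features. These are descriptions, without a test of the difference between long and shorter features.

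**Figure D2:**
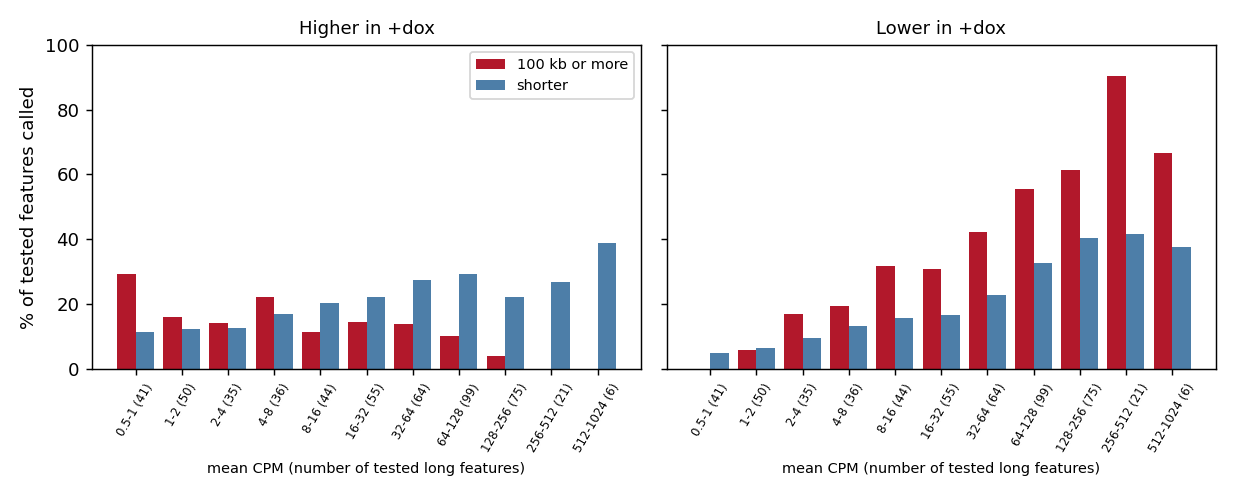
The bars give the percentage of tested features called higher (left) or lower (right) in +dox libraries, at adjusted p under 0.05, for genes of 100 kb or more and for shorter autosomal mRNA features, by mean CPM; the number of tested long genes stands in parentheses. From 8 CPM upward the bars of long genes are the taller ones on the right and the shorter ones on the left.

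The limit of 100 kb marks no step. Among autosomal mRNA features with a mean of at least 5 CPM, the median log2 fold change was 0.20 for spans under 5 kb (n = 1484), 0.03 for 5 to 20 kb (n = 3198), -0.10 for 20 to 50 kb (n = 1867) and -0.17 for 50 to 100 kb (n = 676). It was -0.19 for 100 to 200 kb (n = 314), -0.19 for 200 to 400 kb (n = 63) and -0.35 for 400 kb or more (n = 16). The share that fell was 46.0% at 50 to 100 kb, 46.5% at 100 to 200 kb, 50.8% at 200 to 400 kb and 62.5% (10 of 16) beyond that. Over all 9271 tested autosomal mRNA features Spearman's correlation of span with log2 fold change was -0.25, and within the 526 long genes alone it was -0.01; these are correlations across genes, which share libraries and are not independent replicates. The nearest tested genes with a symbol on either side of the limit are given as values. Just inside it, ANKHD1 (100.5 kb) averaged 232 CPM in +dox and 290 CPM in -dox libraries and STXBP5 (100.7 kb) 46.9 and 56.4 CPM. Just outside it, ACACA (99.6 kb) averaged 396 CPM in +dox and 336 CPM in -dox libraries and HS6ST2 (99.6 kb) 10.7 and 12.7 CPM.

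**Figure D3:**
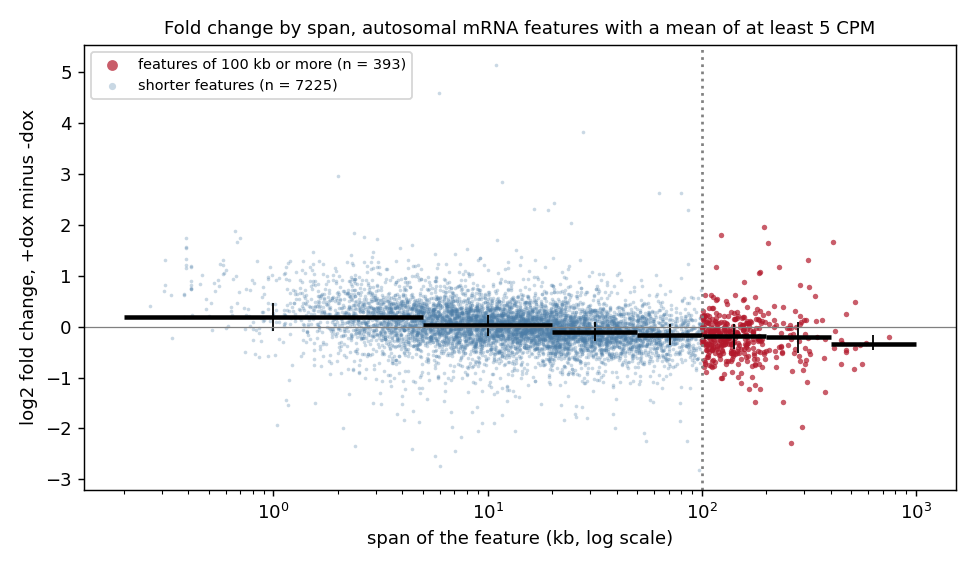
Each point is an autosomal mRNA feature with a mean of at least 5 CPM, with its span in kb (log scale) across and its log2 fold change, +dox minus -dox, upward; horizontal bars are medians of span classes and vertical lines their middle 50%. The class medians step down from 0.20 under 5 kb to -0.35 at 400 kb or more, with no break at the dotted line at 100 kb.

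A difference of the same shape also ran between libraries of 1 group. CAP-H -dox replicate 1, the deepest library, was the highest of the 3 -dox libraries in 292 of 393 long genes above 5 CPM (74.3%), but in 29.9% of shorter features. Its log2 CPM in long genes exceeded that of -dox replicate 2 by a median of 0.12 and that of replicate 3 by 0.13, while for spans under 5 kb it stood at -0.06 and -0.08 relative to them. The corresponding differences in long genes were 0.01 between -dox replicates 2 and 3 and -0.02 between +dox replicates 1 and 3. Without -dox replicate 1, the median of the 393 long genes was -0.15 in place of -0.20, and that of all tested long genes -0.10 in place of -0.15. Of the 514 long genes tested in that run 174 fell (33.9%) and 74 rose (14.4%). Of shorter features of like CPM 21.1% fell and 20.6% rose. The medians of the span classes without -dox replicate 1 still ran down, at 0.18 under 5 kb, -0.14 at 50 to 100 kb and -0.25 at 400 kb or more. The part of RNA quality or depth in these differences was not tested.

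Whether the counts take in introns is not stated. Identifiers that share an interval had equal counts, with 0 exceptions, as counting over whole intervals would give. No feature wholly inside a tested long gene held more counts than that gene. Exons and introns could not be separated, so levels per kb are per kb of annotated span. The median was 0.205 CPM per kb of span in +dox libraries and 0.220 in -dox libraries for tested long genes, against 2.72 and 2.84 for shorter ones. In the next paragraphs genes are grouped by what their products do, and where a list is counted, the shorter genes that meet the same naming rule are counted beside it. Within a list, long and shorter genes were not matched on CPM. For adhesion and synapse genes the median level was 2.40 CPM in long and 29.2 CPM in shorter genes. For cytoskeleton and motor genes it was 57.6 and 48.5 CPM. The lists hold 128 of the 253 tested long genes that have a symbol. Beside them, 23.7% of all features tested fell and 22.6% rose. Of all tested long genes 37.6% fell and 12.9% rose, with a median of -0.15. Lists near these values show no more than the whole set of long genes does. Examples are transcription factors (44.4% fell, median -0.15) and cytoskeleton and motor genes (40.0% fell, median -0.16). Levels are in CPM for 1 library at a time.

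Several long genes act on Rac, Rap or Ras, small GTPases that steer the actin cytoskeleton and receptor signalling, and are given one by one. ELMO1 (chromosome 2, 46963798 to 47228581), which with DOCK proteins activates Rac, stood at 260 and 271 CPM in +dox libraries and at 524, 471 and 463 CPM in -dox libraries. Both +dox libraries lay far below the -dox ones, and the difference was -0.87 (SE 0.07, adjusted p = 3.8e-08). ELMO1 was named as one of the largest falls with groups apart, so its gap is no finding. Its partner DOCK2 (chromosome 13, 3332601 to 3484961), the exchange factor that serves Rac in leukocytes, stood at 246 and 234 CPM in +dox and at 369, 373 and 378 CPM in -dox libraries (-0.64, SE 0.06, adjusted p = 5.0e-07). ARHGAP24, which switches Rac off, had 51.9 and 52.0 CPM in +dox libraries and 119, 111 and 103 CPM in -dox libraries (-1.10, SE 0.07). RAPGEF2, an activator of Rap, had 18.5 and 17.7 CPM in +dox and 33.2, 28.7 and 30.2 CPM in -dox libraries (-0.77, SE 0.11). Activators and an inhibitor were among those that fell. Inhibitors were also among those that rose, where RASA3, which acts on Ras, averaged 37.1 ± 1.58 CPM in +dox and 27.0 ± 2.03 CPM in -dox libraries (0.45, SE 0.10), and CHN2, which acts on Rac, 58.9 ± 0.565 and 44.9 ± 4.04 CPM (0.39, SE 0.08).

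Long genes of ubiquitin ligases and deubiquitinases, which attach or remove the tag that marks proteins for degradation, fell in 6 of 8 cases and rose in 2, with a median of -0.48, while the 146 shorter genes of this list fell in 45 cases, rose in 21 and had a median of -0.04. HERC2 (chromosome 1, 129860462 to 129965053), a giant ligase of the DNA damage response, stood at 126 and 124 CPM in +dox libraries and at 236, 226 and 234 CPM in -dox libraries (-0.89, SE 0.07, adjusted p = 2.1e-08). BIRC6 (chromosome 3, 30846149 to 31022941), which combines ubiquitin transfer with inhibition of apoptosis, had 454 and 471 CPM in +dox and 792, 764 and 741 CPM in -dox libraries (-0.73, SE 0.05). USP34, a deubiquitinase, had 177 and 173 CPM in +dox and 263, 263 and 259 CPM in -dox libraries (-0.58, SE 0.06). In all 3 genes the replicates of a group lay close together and the groups were well apart, but they were chosen for the lowest p of the list, so this is no finding. BIRC6 overlaps an unnamed feature.

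Chromatin regulators fell in 6 of 9 long genes and rose in 1 (median -0.31), and transcription factors fell in 8 of 18 and rose in 1 (median -0.15). The shorter chromatin regulators fell in 23 of 62 cases and rose in 10 (median -0.11), and the shorter transcription factors fell in 44 of 136 and rose in 21 (median -0.09). HDAC9, a histone deacetylase, stood at 287 and 283 CPM in +dox and at 419, 389 and 421 CPM in -dox libraries. PHF21A, a reader of unmethylated histone tails, averaged 35.9 ± 2.11 CPM in +dox and 55.5 ± 3.09 CPM in -dox libraries (-0.63, SE 0.08), and ARID2, a subunit of a SWI/SNF remodeller, 118 ± 0.449 and 150 ± 8.24 CPM (-0.35, SE 0.06). FOXP1 (chromosome 12, 15896320 to 16041865), a forkhead factor needed in B-cell development, had 80.1 and 83.0 CPM in +dox libraries and 127, 109 and 110 CPM in -dox libraries (-0.51, SE 0.07, adjusted p = 1.8e-05). TCF12, an E protein that binds E-box sequences in lymphoid genes, had 589 and 611 CPM in +dox and 775, 757 and 751 CPM in -dox libraries (-0.34, SE 0.05). NFIA, a nuclear factor I gene with little RNA in these cells, was the factor counted as rising, with 3.54 and 4.86 CPM in +dox libraries and 0.663, 0.819 and 0.661 CPM in -dox libraries (2.54, SE 0.35). It passed the filter only through the +dox libraries, so its rise was partly fixed by that choice. FOXP1 and NFIA overlap unnamed features.

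Among genes of RNA processing and decay, 4 of 6 long genes fell and 0 rose (median -0.45), while the 175 shorter ones fell in 69 cases and rose in 38 (median -0.09). IGF2BP3, which binds and stabilises mRNAs, stood at 368 CPM in both +dox libraries and at 500, 489 and 499 CPM in -dox libraries (-0.43, SE 0.06). DDX10, an RNA helicase, averaged 130 ± 8.29 CPM in +dox and 194 ± 13.8 CPM in -dox libraries (-0.57, SE 0.07). QKI, a splicing regulator, averaged 68.5 ± 3.64 and 98.1 ± 6.68 CPM (-0.52, SE 0.07), but it overlaps a noncoding RNA feature that holds about as many counts (101.8% of its own).

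Kinases and second messenger enzymes fell in 7 of 10 long genes and rose in 1 (median -0.29), and shorter ones fell in 40 of 115 and rose in 17 (median -0.13). PRKD1, protein kinase D1, had 49.4 and 51.6 CPM in +dox and 87.8, 76.7 and 76.4 CPM in -dox libraries (-0.68, SE 0.07, adjusted p = 2.3e-06). ADCY6, an adenylate cyclase, averaged 27.0 ± 0.949 CPM in +dox and 37.9 ± 3.05 CPM in -dox libraries (-0.50, SE 0.10), and GSK3A, a glycogen synthase kinase, 106 ± 1.46 and 134 ± 6.95 CPM (-0.33, SE 0.06). Of 3 tested receptor phosphatases and kinases 1 rose, PTPRR, a tyrosine phosphatase, with 2.61 and 2.71 CPM in +dox libraries and 0.751, 1.23 and 0.743 CPM in -dox libraries (1.56, SE 0.37, adjusted p = 0.0027). FLT1 (0.30, adjusted p = 0.090) and IGF1R (-0.17, adjusted p = 0.21) did not pass, although IGF1R did with library size alone (-0.36, adjusted p = 0.014). The median of those 3 was 0.30, and 17 shorter genes of the list had 4 rises, 7 falls and a median of 0.00.

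Cytoskeleton and motor genes fell in 8 of 20 long genes and rose in 4 (median -0.16), against 29 falls and 17 rises among 80 shorter ones (median -0.11). MTSS1 (chromosome 2, 138077046 to 138193552), which couples actin to curved membranes, was among those that rose, with 119 and 128 CPM in +dox libraries and 56.4, 51.3 and 57.3 CPM in -dox libraries (1.17, SE 0.06, adjusted p = 5.8e-10). PPP1R12A, the targeting subunit of myosin phosphatase, averaged 107 ± 5.14 CPM in +dox and 148 ± 6.95 CPM in -dox libraries (-0.48, SE 0.06), and TTLL5, a tubulin-modifying enzyme, 72.4 ± 0.276 and 101 ± 5.97 CPM (-0.49, SE 0.06). Membrane traffic genes fell in 5 of 10 long genes and rose in 1 (median -0.11), and in 67 and 38 of 197 shorter ones (median -0.09). EXOC4, of the exocyst, averaged 122 ± 3.35 CPM in +dox and 153 ± 11.2 CPM in -dox libraries (-0.33, SE 0.06), and RABGAP1L, of the Rab GTPase-activating family, 101 ± 5.01 and 121 ± 4.06 CPM (-0.27, SE 0.06). DENND5B, a Rab activator, had 20.2 and 21.6 CPM in +dox and 34.7, 30.1 and 26.8 CPM in -dox libraries (-0.56, SE 0.12).

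Adhesion and synapse genes, the classic long genes of the nervous system, were mostly too low to test: 12 of 51 passed the filter, 2 of which fell and 2 rose (median -0.33), while 41 shorter ones had 7 falls and 10 rises (median 0.00). Of the teneurins, large transmembrane adhesion proteins, 2 are given. TENM3 (chromosome 4, 39503733 to 39814662), stood at 278 and 322 CPM in +dox libraries and at 687, 614 and 609 CPM in -dox libraries (-1.09, SE 0.07, adjusted p = 8.8e-09). TENM1 (chromosome 4, 15251044 to 15482152) passed the filter only through the +dox libraries, so its rise was partly fixed by that choice. It stood at 2.02 and 4.30 CPM in +dox libraries, against 0.221, 0.751 and 0.330 CPM in -dox libraries (2.90, SE 0.50). Per kb of span, TENM3 stood at 0.966 CPM in +dox and 2.05 CPM in -dox libraries and TENM1 at 0.0137 and 0.00188 CPM. NTM, the neurotrimin gene, passed the filter in the same way, with 2.95 and 3.92 CPM in +dox libraries and 0.619, 1.02 and 0.496 CPM in -dox libraries (2.25, SE 0.38). These are the 2 genes of the list counted as rising.

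Of 30 long genes for channels, pumps and transporters 11 were tested, of which 2 fell and 1 rose (median -0.06), and 182 shorter ones had 38 falls and 44 rises (median 0.03). KCNIP1, a calcium-binding partner of potassium channels, fell most among named long genes above 5 CPM. Its level was 10.2 and 8.03 CPM in +dox libraries and 34.9, 36.3 and 36.7 CPM in -dox libraries, and KCNMB1 lies within its span, so reads of the pair are not separated. KCNMB1 holds 27.2% as many counts as KCNIP1 and stood at -2.44 on the log2 scale, against -1.97 for KCNIP1. The part of KCNMB1 in the fall of KCNIP1 was not tested. CACNA2D3, a calcium channel subunit, rose to 6.07 and 5.42 CPM in +dox libraries, against 3.98, 2.66 and 2.48 CPM in -dox libraries (0.87, SE 0.26, adjusted p = 0.012), but not without +dox replicate 1 (0.79, adjusted p = 0.070). SLC9A9, an endosomal sodium-proton exchanger, had 26.9 and 24.2 CPM in +dox and 36.3, 29.1 and 28.9 CPM in -dox libraries (-0.31, SE 0.12, adjusted p = 0.043), a call lost without -dox replicate 1 (-0.18, adjusted p = 0.23) or +dox replicate 3 (-0.23, adjusted p = 0.18). The naming rule for DNA replication and repair matched 0 long genes, and only the 439 of 890 long genes with a symbol could be matched. The 71 shorter genes of that list had 27 falls and 12 rises (median -0.09).

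**Figure D4:**
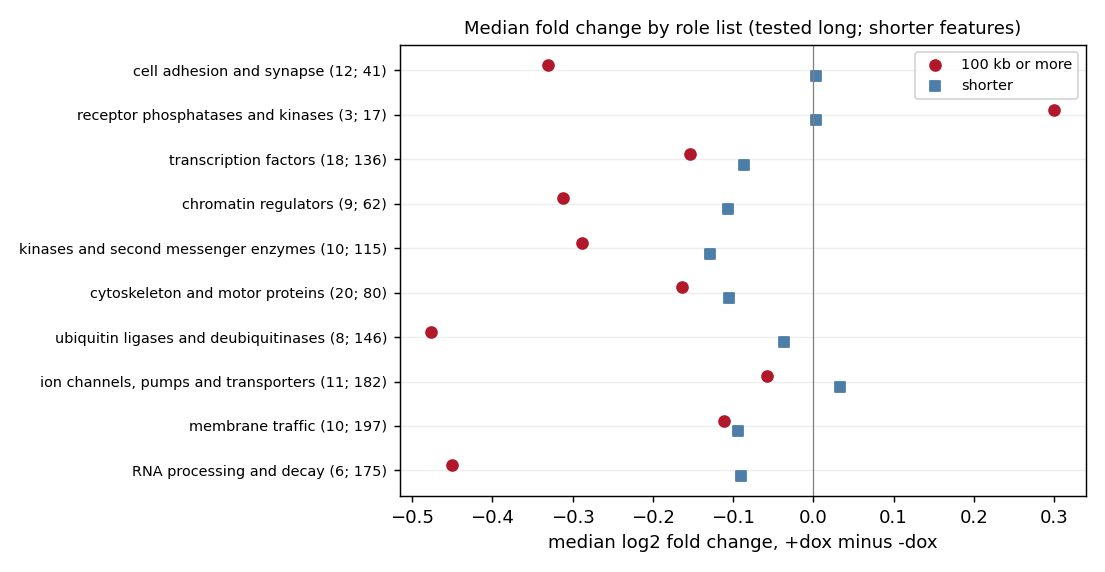
For each role list, the circle is the median log2 fold change, +dox minus -dox, of the tested genes of 100 kb or more and the square that of the shorter genes; both numbers of genes stand in parentheses, long first. In 9 of the 10 lists drawn the median of the long genes lies below that of the shorter ones, and the exception is the list of 3 receptor phosphatases and kinases. The gap is small in some lists, as in membrane traffic (-0.11 and -0.09), and long and shorter genes were not matched on CPM.

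Genes that lie at common fragile sites in human cells were taken as a list of their own. Of 14 that are long here 8 were tested, of which 4 fell and 1 rose (median -0.37). The list holds 0 shorter genes, and 23.7% of all features tested and 37.6% of the tested long genes fell, while 22.6% and 12.9% rose. PARK2 (chromosome 3, 43882497 to 44444588), the gene of the ubiquitin ligase parkin, spans 562.1 kb and stood at 35.2 and 37.4 CPM in +dox libraries and at 67.4, 55.0 and 57.2 CPM in -dox libraries (-0.73, SE 0.09, adjusted p = 9.5e-06). WWOX (chromosome 11, 13522704 to 13995482), an oxidoreductase gene of 472.8 kb, had 86.3 and 90.0 CPM in +dox and 137, 114 and 119 CPM in -dox libraries (-0.49, SE 0.07, adjusted p = 3.4e-05). DPYD (chromosome 8, 11522450 to 11839071), whose enzyme starts the breakdown of uracil and thymine, rose to 68.4 and 69.9 CPM in +dox libraries, against 43.8, 36.5 and 40.0 CPM in -dox libraries (0.78, SE 0.08, adjusted p = 9.1e-07). WWOX overlaps MAF and an unnamed feature, and PARK2 overlaps an unnamed feature.

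Of the longest tested genes with a symbol, those described here were expressed at low levels, PARK2 apart. RBFOX1, a splicing regulator of neurons and muscle (747.8 kb), averaged 6.22 ± 0.450 CPM in +dox and 7.07 ± 0.532 CPM in -dox libraries (-0.20, adjusted p = 0.43). The glutamate receptor gene GRID1 (517.6 kb; -0.42, adjusted p = 0.14) did not pass either, but did with library size alone (-0.61, adjusted p = 0.036). AUTS2 (660.8 kb), a gene of neuronal development, had 0.337 and 1.21 CPM in +dox libraries and 2.61, 2.66 and 2.64 CPM in -dox libraries (-1.79, SE 0.45). AUTS2 passed the filter only through the -dox libraries, so its fall was partly fixed by that choice. Its value rests on single +dox libraries, since it was -1.12 (adjusted p = 0.084) without +dox replicate 1 and -2.93 without +dox replicate 3. At the other end, among the long genes with the most counts per library, CLASP2, which stabilises microtubule ends, averaged 477 ± 2.24 CPM in +dox and 548 ± 2.35 CPM in -dox libraries (-0.20, SE 0.05, adjusted p = 0.0051). IPO5, a nuclear import receptor, did not pass, with 517 and 528 CPM in +dox and 509, 513 and 517 CPM in -dox libraries (0.03, adjusted p = 0.70).

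Some long genes ran against the majority, and of those that carry a symbol, average 5 CPM or more and keep their groups apart 20 rose and 97 fell. The share over all features under this joint rule was not computed. Of all features with a mean of at least 5 CPM 24.9% rose and 27.2% fell. Of all features tested 32.1% had both +dox libraries above all -dox libraries and 32.9% below. ASIC2 (chromosome 27, 1767750 to 2179369), an acid-sensing ion channel gene of 411.6 kb that the channel list does not hold, had 17.2 and 17.9 CPM in +dox libraries and 5.52, 5.53 and 5.45 CPM in -dox libraries. CNKSR2 (chromosome 1, 118613010 to 118816668), a scaffold of Ras signalling, had 64.8 and 66.0 CPM in +dox libraries and 18.9, 21.2 and 23.2 CPM in -dox libraries. COL22A1, a collagen gene, had 10.4 and 11.9 CPM in +dox and 6.14, 3.28 and 4.96 CPM in -dox libraries (1.18, SE 0.22, adjusted p = 0.00047). In these 3 genes both +dox libraries lay well above the -dox range, but they were chosen for groups that do not overlap, so this is no finding. BCKDHB, of branched-chain amino acid breakdown, rose by 0.63 (SE 0.07), CENPP, a centromere protein gene that spans 3 other genes, by 0.52 (SE 0.10), and ULK4, a pseudokinase gene, by 0.40 (SE 0.09), the last a call lost with scaling by library size alone (0.22, adjusted p = 0.059). Of the genes within CENPP, BGN holds 24.6% as many counts as CENPP and stood at 0.94 on the log2 scale, and ECM2 13.8% and 0.81, both above CENPP itself. OGN, the third, holds 7.66% and stood at -0.08, below CENPP. The part of these genes in the rise of CENPP was not tested. MAN1A1, a Golgi mannosidase gene, rose by 0.61 (SE 0.18, adjusted p = 0.010). Its call was lost with library size alone (0.43, adjusted p = 0.057), without a filter on low counts (0.52, adjusted p = 0.11) and without +dox replicate 1 (0.58). ARHGAP42 averaged 12.2 ± 0.755 CPM in +dox and 8.42 ± 0.473 CPM in -dox libraries (0.52, SE 0.16, adjusted p = 0.012). Its call was lost with library size alone (0.34, adjusted p = 0.086), without a filter (0.42, adjusted p = 0.12) and without +dox replicate 3 (0.46).

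The remaining deep falls were of mixed function. SH3KBP1 (chromosome 1, 119398187 to 119620052), an adaptor of receptor endocytosis and B-cell receptor signalling, had 219 and 222 CPM in +dox libraries and 401, 384 and 367 CPM in -dox libraries (-0.80, SE 0.06, adjusted p = 6.1e-08). DPH6, of the pathway that makes diphthamide on elongation factor 2, averaged 70.3 ± 2.81 CPM in +dox and 119 ± 1.97 CPM in -dox libraries (-0.76, SE 0.05). FRMPD4, a synaptic scaffold gene, averaged 11.6 ± 0.355 and 22.0 ± 1.61 CPM (-0.93, SE 0.13), and BCAS3 40.9 ± 6.03 and 67.3 ± 9.85 CPM (-0.74, SE 0.11). ZCCHC24, a zinc finger gene, had 27.2 and 24.9 CPM in +dox and 49.7, 42.4 and 43.1 CPM in -dox libraries (-0.80, SE 0.10). Features without a symbol reached as far, and 4 were picked after their values were seen. XM_416734.3 (chromosome 1, 107600977 to 107978888) had 128 and 118 CPM in +dox and 325, 283 and 284 CPM in -dox libraries (-1.28, SE 0.08), and XM_418402.3 (chromosome 2, 134048832 to 134215756) averaged 57.9 ± 1.14 and 134 ± 3.37 CPM (-1.22, SE 0.06). XM_418686.2 (chromosome 2, 26394646 to 26589578) rose to 43.1 and 41.7 CPM in +dox libraries, against 12.2, 8.94 and 11.1 CPM in -dox libraries (1.96, SE 0.12), and XM_420641.3 rose by 1.31 (SE 0.11). Those without a symbol fell in 34.8% of 273 tested cases and rose in 12.5%, and those with one fell in 40.7% of 253 and rose in 13.4%.

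**Figure D5:**
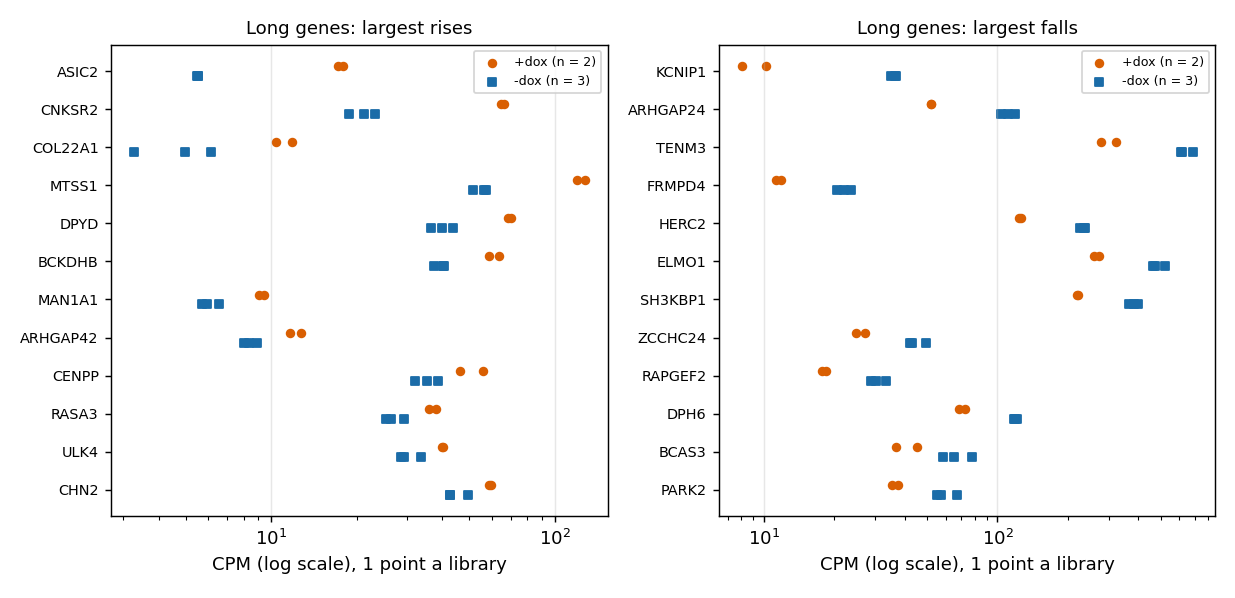
Points are the levels of single libraries in CPM (log scale), +dox as circles and -dox as squares, for the 12 largest rises (left) and 12 largest falls (right) among named long genes that average 5 CPM or more and whose groups lie apart. ASIC2 and CNKSR2 on the left and KCNIP1 on the right show the widest gaps between groups; the genes were chosen for the gap, so their separation is no finding.

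Long genes lie mainly on the large chromosomes. Chromosomes 1 to 4 hold 197, 156, 119 and 79 of them, and on chromosome 2 they make 11.1% of the mRNA features. Among the 14 chromosomes with at least 10 tested long genes, the median log2 fold change of the long genes was below that of the shorter ones on 12, and the share that fell was above it on 13. It was -0.14 against 0.02 for shorter features on chromosome 1, -0.19 against -0.01 on chromosome 2 and -0.30 against 0.00 on chromosome 4, whereas on chromosome 7 it was 0.00 against -0.04 and on chromosome 10 0.08 against 0.03. The medians of near neighbours ran in the order of the calls of the long genes, and their differences were not tested. The closest shorter features within 100 kb of the 198 that fell numbered 206, of which 27.7% fell and 22.8% rose (median -0.05). Those beside the 260 that did not pass numbered 287, of which 22.3% fell and 22.3% rose (median 0.02). Those beside the 68 that rose numbered 78, of which 21.8% fell and 26.9% rose (median 0.04).

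Overlap with other features concerned 159 of the 890 long genes (17.9%) and 10.9% of the shorter mRNA features, and reads in the shared part cannot be assigned to either. Of the 97 tested long genes that overlap another feature 40 fell (41.2%) and 9 rose (9.28%). Of the 429 without overlap 158 fell (36.8%) and 59 rose (13.8%). Among all features tested, 23.7% fell and 22.6% rose. In 14 tested long genes an overlapping feature held at least 50% as many counts as the long gene itself. NM_001079713.1, for example, singled out after its values were seen, contains RAN, whose counts came to 83.4% of its own.

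The authors' deposited table lists 259 of the 890 long genes (29.1%) as changed, with a negative value for 211 and a positive one for 48, where it lists 22.2% of all features (14.5% negative, 7.65% positive). Of these 251 were tested here, and in all 251 the sign in the authors' deposited table equalled that of the log2 fold change given above, +dox minus -dox. The same held for all 3479 features of any span that the table lists and that were tested here. The table comes from the same libraries, so it is no independent measurement.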

How the data were processed

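Each deposited count file lists whole-number counts for RefSeq transcripts, by identifier and interval on galGal4; the smallest value is 1. Per the submitters' processing notes, TopHat2 2.0.8b, Bowtie, FastQC and edgeR 3.2.3 were used; the read counter, strand setting and filters are not stated in the sources. Header names stand 1 place off the columns. The authors' deposited comparison table holds log2 fold changes, log2 mean CPM, a likelihood ratio score, p-values and adjusted p-values per the file headers, with its direction not stated. Symbols came from a RefSeq table of GRCg7b, matched by accession without version (462 of 978 rows).

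The counts of 16143 features went into edgeR 4.0.16, under R 4.3.3 (filterByExpr, TMM, glmQLFit, glmQLFTest, no covariates). The fit was also run on simulated counts with far fewer changed features than were called here. That run therefore cannot vouch for the fit in these data. TMM factors were 0.928 and 0.927 in +dox libraries and 1.07, 1.04 and 1.04 in -dox libraries. CPM use these factors; errors are SD, and the SE is the fold change over the square root of F. DESeq2 1.42.0, other filters and scaling, a replicate block and each library left out were alternatives.

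The long genes and the role lists were chosen with earlier results of these data known. Named genes are, among tested long genes with a symbol, the 12 largest rises and falls (adjusted p under 0.05, at least 5 CPM, groups not overlapping), the 5 longest, the 5 with the highest mean CPM, the 3 of lowest p per list, and 2 on each side of the limit. One role list and 1 gene that this rule selects are not reported here.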

Additional observations from a re-analysis of the deposited data

How the results depend on the processing

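The median of long genes minus that of shorter features of like CPM was -0.17 and stayed between -0.20 and -0.14 under every alternative run. Scaling by library size alone shifts all fold changes by nearly the same amount. That run could therefore not move this difference (-0.17 again) and says nothing about it. With library size alone in place of TMM, all features gave 1272 rises and 4119 falls, the median of long genes was -0.33, that of shorter features of like CPM -0.16, and 11.8% of these shorter features rose and 38.3% fell; 23.6% of all calls were then higher, against 48.9%. Without a filter on low counts, 6.40% of long genes rose and 25.1% fell. The shorter features of like CPM had a median of 0.067, and 9.28% rose and 16.0% fell. With a mean of at least 5 CPM as the filter, 41 of 392 long genes rose (10.5%) and 183 fell (46.7%). Of shorter features of like CPM 26.2% rose and 26.9% fell, with a median of -0.00016. With a limit of 50 kb, 180 features rose (13.3% of 1352) and 514 fell (38.0%), against 23.8% and 22.3% of shorter features of like CPM. With 200 kb 20 rose (15.2% of 132) and 49 fell (37.1%), against 19.7% and 20.3%. On chromosomes 1 to 5 alone 44 of 345 long genes rose (12.8%) and 141 fell (40.9%). Of shorter features of like CPM there 20.4% rose and 22.7% fell, with a median of -0.00080. Matched on CPM per kb, which covered 500 of the 526 tested long genes, 15.1% of shorter features rose and 12.8% fell. Shorter features of like CPM per kb have fewer counts and are called less readily, so these shares are not on a par with those of long genes. Leaving out 1 -dox library at a time gave 56 to 74 rises (10.7% to 14.4%) and 174 to 197 falls (33.9% to 37.4%) of long genes. Of shorter features of like CPM 19.4% to 20.7% rose and 19.8% to 21.3% fell. Over all 5 libraries, each left out in turn, the median of shorter features was 0.0046 to 0.039. Where 1 +dox library is left, it is assumed to vary like the others.

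Between libraries of the same replicate number in the labels, deviations from the group means had a correlation of -0.01 for number 1 and -0.03 for number 3. With 2 +dox libraries the deviations of 1 mirror those of the other, so these values cannot decide whether the numbers pair the libraries. With the number as a replicate block, 52 of 526 long genes rose (9.89%) and 187 fell (35.6%), against 17.5% and 18.3% of shorter features of like CPM. Among named genes only ARHGAP42 lost its call in that run (0.49, adjusted p = 0.052). IPO5 stood at -0.15 (adjusted p = 0.013) with library size alone, against 0.03 with TMM. Besides IPO5, 2 named genes gained a call with library size alone, GRID1 and IGF1R. Calls were lost by 4 named genes with library size alone, 4 without a filter and 1 with DESeq2.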
